A study of Mus musculus with 2 samples.

Results

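The genes described here encode 10 digestive enzymes of the pancreas: the amylase Amy2a5, the trypsinogens Try4 and Try5, the chymotrypsinogen Ctrb1, the elastases Cela1, Cela2a and Cela3b, the carboxypeptidases Cpa1 and Cpb1, and the lipase Pnlip. They were chosen by name as enzymes of pancreatic juice after most of them had been seen to give a higher signal on 1 of the arrays, so their differences between the arrays are a description and no test of anything. All 10 were found on the array, with 11 probes out of 55679 and 10 genes out of 20887 that carry a name. Amy2a5 had 2 probes and every other gene had 1, and each probe was printed as a single spot.

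The arrays hold RNA of T cells sorted from the small intestine of C57BL/6 mice, male and female pooled, aged 8 to 12 weeks. Control mice were labelled Rbpjf/f and the other mice CD4-Cre Rbpjf/f, abbreviated RFF4, so that both carry floxed Rbpj, the DNA-binding partner of Notch receptors, and RFF4 mice also carry a Cre recombinase that is active in T cells. The label of the Control names no Cre, whereas the text of the study describes controls with CD4-Cre and unfloxed Rbpj. Intraepithelial lymphocytes (IELs), the T cells that sit between the cells of the gut lining, were released with EDTA, enriched on Percoll, depleted of CD4+ and TCRγδ+ cells and sorted as TCRαβ+CD8αα+. RNA from several isolations was pooled into 1 sample per genotype and hybridized to 1 Agilent array of 1 color each, both on the same slide and in the same scan. The number of mice in a pool was not given in the sources used here. With 1 array per genotype there is no replicate, no test between genotypes and no p-value, and a genotype cannot be told apart from its pool.

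Pancreatic acinar cells make these enzymes, store them in zymogen granules and release them through the pancreatic duct into the duodenum. Trypsinogens, chymotrypsinogens, proelastases and procarboxypeptidases are secreted as inactive precursors and are cut to their active forms in the gut lumen, where enteropeptidase of the gut lining activates trypsin and trypsin activates the rest. Amylase and pancreatic lipase are secreted active. In acinar cells the genes are switched on by PTF1, a complex of Ptf1a with an E protein and either Rbpj or its paralog Rbpjl, which reads an E-box (CACCTG) together with a TC-box (TTTCCC).

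Because the members share this regulation and one of the PTF1 partners is the gene under study, the sequence before the start of the genes was read from a table of RefSeq promoters (GRCm38.p6), in which 9 of the 10 genes were matched, all but Try5. Within the 250 bases before the start, CACCTG was present on either strand in 5 of 9, against 17.2% of 32851 mouse promoters of that length. TTTCCC was present on either strand in 4 of 9, against 21.9%, and TATAAA, read on the strand of the gene, in 4 of 9, against 7.59%. CACCTG and TTTCCC within 10 bases of each other were found in Cela1 alone among the 9, and in 24 of all 32851 promoters (0.0731%). This paired form was chosen after the sequences had been read. Cela2a held both motifs farther apart and Cela3b held CACCTG without TTTCCC, and both genes were higher on the array labelled RFF4. Cela1 is printed below because it holds the pair and was the only one of the 10 enzymes with a lower signal on the array labelled RFF4, and Try4 and Cpb1 because they hold an E-box at a similar distance and were higher there. Sequences run 5′ to 3′ along the gene and end at the base before its start, and capitals mark the E-box, written CACCTG or as its reverse complement CAGGTG, as well as the TC-box and the TATAAA motif.
Cela1, chr15:100687921-100688170, minus strand: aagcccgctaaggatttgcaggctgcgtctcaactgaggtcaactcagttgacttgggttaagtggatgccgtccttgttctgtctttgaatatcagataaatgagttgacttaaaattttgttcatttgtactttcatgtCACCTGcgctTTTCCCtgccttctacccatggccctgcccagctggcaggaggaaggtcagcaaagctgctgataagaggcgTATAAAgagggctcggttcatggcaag
Try4, chr6:41302022-41302271, plus strand: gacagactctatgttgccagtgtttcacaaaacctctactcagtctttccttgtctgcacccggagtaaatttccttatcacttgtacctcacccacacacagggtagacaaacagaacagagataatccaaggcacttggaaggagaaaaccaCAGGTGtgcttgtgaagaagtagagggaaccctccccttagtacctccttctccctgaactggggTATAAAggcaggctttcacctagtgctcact
Cpb1, chr3:20275734-20275983, minus strand: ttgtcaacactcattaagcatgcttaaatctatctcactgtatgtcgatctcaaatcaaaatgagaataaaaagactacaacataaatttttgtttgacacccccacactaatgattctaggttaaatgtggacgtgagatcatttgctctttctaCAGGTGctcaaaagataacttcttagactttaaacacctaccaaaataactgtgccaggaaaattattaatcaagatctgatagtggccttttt
The first base of the E-box lay 109 bases before the start of Cela1, 96 before that of Try4 and 94 before that of Cpb1. The TC-box of Cela1 began 99 bases and its TATAAA 27 bases before the start, and the TATAAA of Try4 began 31 bases before it. These matches describe letters and not binding, and no difference between the arrays was tied to them.

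Each array carried 62976 spots, 59305 of them with gene probes. The Feature Extraction software of the scanner called 57.2% of the gene spots well above background on the Control array and 49.7% on the array labelled RFF4, and 0 spots were saturated. The dimmest spot so called had an intensity of 11.2 and 11.5, respectively. Intensities are given first as the software wrote them, with its own error estimate for the spot, and a difference is then the log2 signal on the array labelled RFF4 minus that on the Control array, after the 75th percentile of each array had been subtracted. The percentile was 8.99 in log2 units on the Control array and 7.82 on the other, so the same intensity counts for more on the array labelled RFF4. Where a probe was not well above background on the Control array, its difference is given as a lower bound. It is measured against the dimmest Control signal well above background, or the probe's own Control signal if that was higher. In the second case it is a plain ratio and not a strict bound. Every fold and bound is given after this scaling and holds for it alone, so it can exceed the ratio of the printed intensities. Probes spotted 10 times on each array gave an SD of a difference of 0.13 for dim probes, which is technical error only. Dim probes were those well above background and below the 75th percentile on both arrays. The SD thus does not cover signals that were not well above background. Rbpj itself gave 1979 on the Control array and 1101 on the array labelled RFF4 at its brighter probe and 188 and 148 at its other probe, so that both intensities were lower on the array labelled RFF4. After scaling to the 75th percentiles its differences were 0.32 and 0.82, and with spike-in controls set equal between the arrays they were -0.78 and -0.29, so its direction rests on the scaling. Whether these probes lie in the deleted part of the gene was not tested, so they do not check the label, and the array is called by its label throughout.

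On the array labelled RFF4, all 10 genes and all 11 probes were well above background. On the Control array, 3 genes were, Amy2a5, Ctrb1 and Cela1, and the other 7 were not. These 7 stand among 156 genes that were well above background on the array labelled RFF4 alone, which is 0.747% of all named genes, and they make up 4.49% of the 156. The difference was positive for 9 genes and negative for 1, against 48.9% positive over all genes with a difference. More than 4-fold higher signal was found for 9 of the 10, against 1.85% of the 13513 named genes with a difference, 250 in all. The median difference was 3.08 over the 10 genes and -0.01 over all genes. As most of the members were selected on these same differences, nothing is read from those shares. Their summed level, relative to each array's 75th percentile, was 19.1 on the Control array and 16.5 on the other over all 10 genes, most of it from Cela1, and 0.25 and 5.41 over the 9 genes without Cela1.

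**Figure D1:**
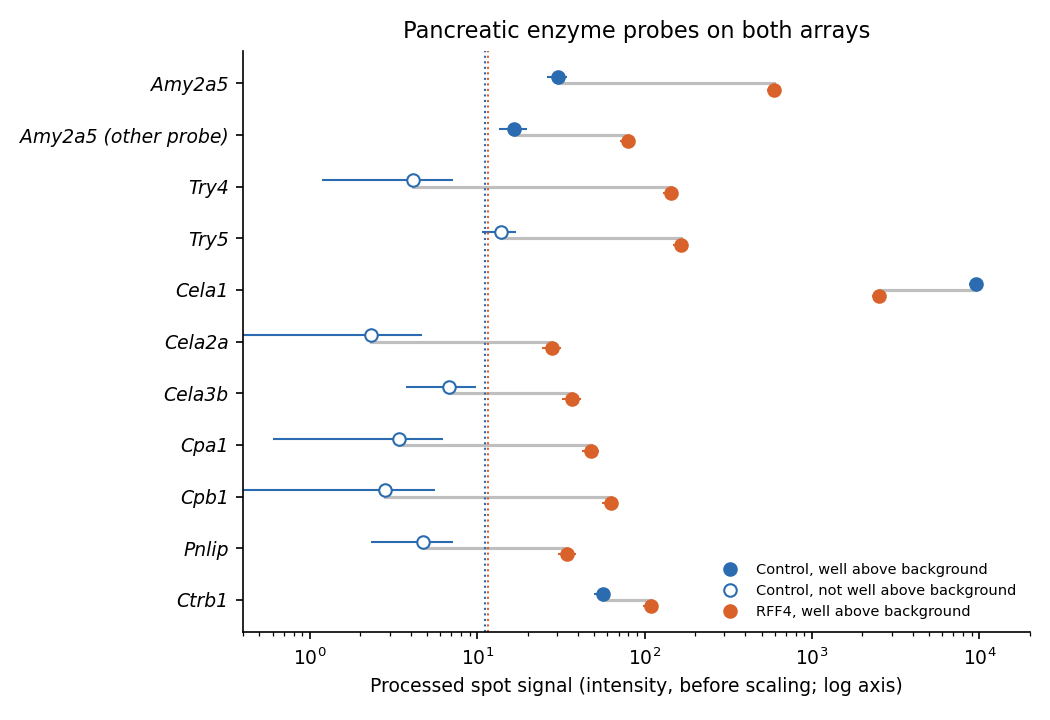
Signal of each of the 11 enzyme probes on the Control array (blue) and the array labelled RFF4 (orange), as processed intensity before scaling on a log axis, with the software's error estimate of the spot as bars (bars that meet the left edge reach 0). Open circles are not well above background and dotted lines mark the dimmest signal called so on each array; 7 of 10 genes have an open Control circle, and Cela1 alone is brighter on the Control array.

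Amy2a5 encodes pancreatic alpha-amylase, which cuts starch. Its brighter probe gave 30.4 ± 4.14 on the Control array and 596 ± 59.7 on the array labelled RFF4 (software error, 1 spot each). The difference was 5.46, a 44.1-fold higher signal after scaling and the highest of the 12955 genes that rose above background in both pools. The second probe gave 16.7 ± 3.25 and 79.6 ± 8.45, a difference of 3.43. Both probes thus had the same direction, but they differed from each other by 2.04 log2 units. The SD of 0.13 is between repeated spots of the same probe and does not measure a spread between probes. The pancreatic amylase genes lie in a row on chromosome 3 with Amy1, the amylase of salivary gland and liver, and are close copies of each other, so a signal cannot be assigned to 1 copy with certainty. Amy1 was also higher, with 43.7 on the Control array, 203 on the array labelled RFF4 and a difference of 3.38. Amy2a4 was not well above background on either array, at 2.33 and 2.40.

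Try4 and Try5 encode trypsinogens, the precursors of the protease that cuts proteins after lysine and arginine. Try4 gave 4.17 ± 2.98 on the Control array, not well above background, and 143 ± 14.6 on the array labelled RFF4. Its signal was at least 28.7-fold higher, a bound of 4.84 in log2 units and the highest bound among the 7 genes. Try5 gave 13.9 ± 3.12 and 166 ± 16.8, 26.9-fold higher after scaling, a difference of 4.75. This was 3.64 with spike-in controls set equal and 2.49 with normexp background correction. The Control signal of Try5 lay above the dimmest signal called well above background elsewhere on that array and was still not called so. The 4.75 is thus a plain ratio against that signal, with no allowance for its error of 3.12. It is counted with the 7 bounds but is not a strict lower bound. Both genes belong to a cluster of near-identical trypsinogen genes on chromosome 6, and the probes may read more than 1 of them. The trypsinogen genes Prss2 and Prss1 had the same direction. Prss2 gave 18.2 and 47.7, a difference of 2.56, and Prss1 gave 8.82, not well above background, and 24.1, a bound of 2.28 at its brighter probe. The other probe of Prss1 was not well above background on either array.

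Ctrb1 encodes chymotrypsinogen, the precursor of a protease that cuts after aromatic residues. It gave 56.3 ± 6.06 on the Control array and 109 ± 11.2 on the array labelled RFF4, well above background on both. Its difference of 2.13, or 4.38-fold, was the member nearest to the 4-fold threshold from above and ranked 148 from the top among the 12955 genes. The intensities themselves differed by 1.95-fold, and the rest of the 4.38-fold comes from the scaling. Ctrl, which encodes a chymotrypsin-like protease, gave 65.7 and 48.4, a difference of 0.73, so that its intensity was lower and its scaled signal higher on the array labelled RFF4.

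Cela1, Cela2a and Cela3b encode elastases, a further group of proteases. Cela1 differed from every other member in level and in direction. It gave 9595 ± 959 on the Control array and 2524 ± 252 on the array labelled RFF4, and its difference of -0.76, or 1.69-fold lower, ranked 1127 from the bottom among the 12955 genes. It was the member nearest to the 4-fold threshold from below, and in both pools its probe was far above background. Cela2a gave 2.33 ± 2.34 on the Control array, not well above background, and 28.2 ± 3.69 on the other, at least 5.65-fold higher, the smallest bound among the members at 2.50. Cela3b gave 6.81 ± 3.03 and 36.8 ± 4.75, at least 7.38-fold higher after scaling, a bound of 2.88, which was 1.78 with spike-in controls set equal and 1.47 with normexp. Cela3a, the neighbor of Cela3b on chromosome 4, had a difference of 1.77 at the probe with the higher mean log2 signal, which stood for the gene, and a bound of 3.78 at its other probe, which was the brighter one on the array labelled RFF4. Cela3a thus counts as more than 4-fold higher at 1 of its probes only.

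Cpa1 and Cpb1 encode carboxypeptidases, which take single residues off the carboxyl end of peptides, Cpa1 those with aromatic or branched side chains and Cpb1 lysine and arginine. Cpa1 gave 3.41 ± 2.81 on the Control array, not well above background, and 48.1 ± 5.59 on the array labelled RFF4, at least 9.65-fold higher, a bound of 3.27. Cpb1 gave 2.80 ± 2.81 and 62.9 ± 6.89, at least 12.6-fold higher, a bound of 3.66. The Control signal of Cpb1 was thus no larger than its own error.

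Pnlip encodes pancreatic triglyceride lipase, which acts on dietary fat with its cofactor colipase, encoded by Clps. Pnlip gave 4.76 ± 2.42 on the Control array, not well above background, and 34.5 ± 4.24 on the array labelled RFF4, at least 6.93-fold higher, a bound of 2.79. Clps gave 426 and 665, a difference of 1.81. The related lipase Pnliprp1 was not well above background on the Control array, at 3.78, and gave 26.7 on the other, a bound of 2.42, while Pnliprp2 gave 42.3 and 65.7, a difference of 1.81.

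**Figure D2:**
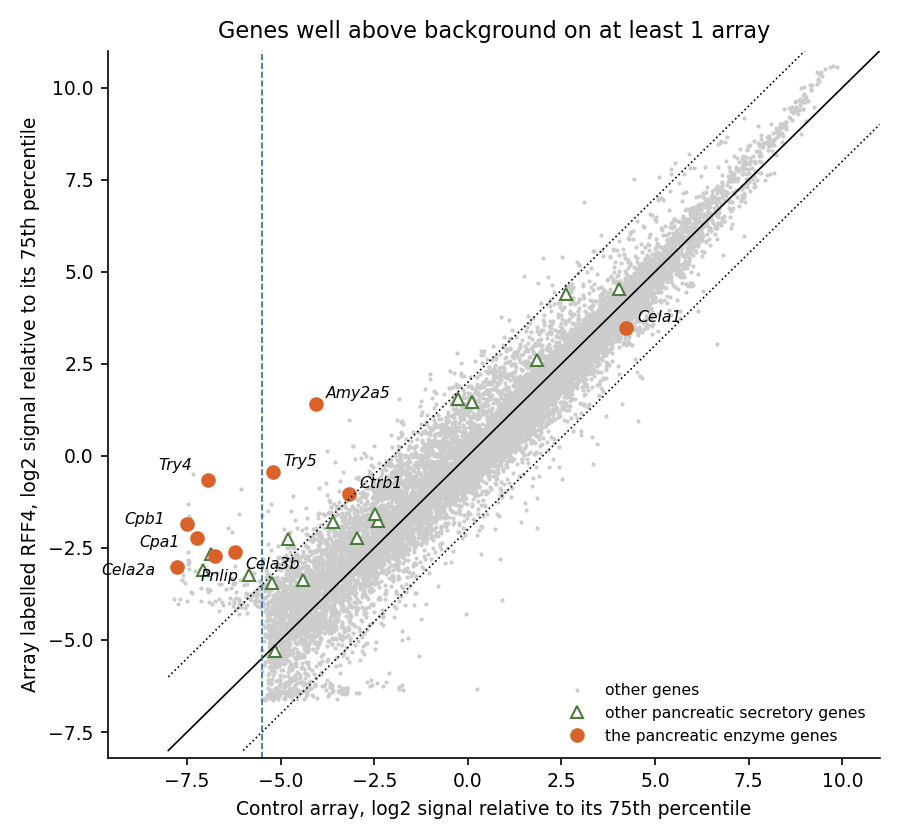
Log2 signal relative to the 75th percentile on the Control array (x axis) and on the array labelled RFF4 (y axis) for the genes well above background on at least 1 array, with the 10 enzyme genes (filled circles), the other pancreatic secretory genes (triangles) and the remaining genes (gray). The solid line marks equal signal, the dotted lines 4-fold differences and the dashed line the dimmest Control signal well above background; 9 enzyme genes lie above the upper dotted line and Cela1 lies below the solid line.

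The spots of these genes were spread over the array, from row 17 to row 318 of 384 and from column 4 to column 143 of 164. The local background at them was 30.5 to 35 on the Control array and 35 to 48 on the other, with medians of 33 and 41 over all gene spots. None of the 11 spots was marked as an outlier on either array (0 on each).

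A further list of secretory genes of the acinar cell was compared in the same way, of which 30 are reported and 21 had a matched probe. Of these, 13 passed the background call on the Control array, 15 on the array labelled RFF4 and 5 on neither. The 15 reported genes that had a difference had a median of 1.77 and a range of 0.49 to 2.84. More than 4-fold higher were 4 of them, which were Prss1, Prss2, Pnliprp1 and Reg2, a gene of the regenerating islet-derived family, with 4.41 on the Control array, 35.6 on the other and a bound of 2.84. Together with the 10 enzyme genes, they supplied 10 of the 156 genes well above background on the array labelled RFF4 alone. The brightest genes on the list were Spink1, the trypsin inhibitor of the pancreas, at 3128 and 4772 with a difference of 1.78, and Reg1, at 8288 and 5190 with a difference of 0.49. The remaining genes were Klk1 at 1.34, Rnase1 at 1.02, Sycn at 0.89, Erp27 at 0.77 and the bile salt-stimulated lipase Cel at 0.62. Pla2g1b was well above background on the Control array alone, at 14.3 against 5.80, and has no difference that could be given. Gp2, Cuzd1, Serpini2 and 2210010C04Rik, like Amy2a4, were not well above background on either array.

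The direction of this longer list rests on the scaling. When 8 spike-in control probes were set equal in place of the 75th percentiles, all genes shifted by -1.11, 9 of 16 of these genes were higher and 7 lower, and their median difference was 0.45. The count of these genes more than 4-fold higher was then 0, and it was also 0 with normexp background correction. As a plain ratio without bounds, Pla2g1b was lower as well. Among the 10 enzyme genes, the same 9 were higher and Cela1 lower under every processing tried.

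Of the 4 factors that switch on acinar genes, 2 had a difference and 0 were more than 4-fold higher. Ptf1a was not well above background on either array, at 4.11 on the Control array and 9.97 on the other. Rbpjl was well above background on the Control array alone, at 17.4 against 9.02. Bhlha15, which is also made in plasma cells, gave 62.1 and 57.5, a difference of 1.06, and Nr5a2, which is also made in gut epithelium, gave 226 and 364, a difference of 1.86, with 1.01 at its other probe. With the spike-in controls set equal, Bhlha15 and Rbpjl were lower on the array labelled RFF4, 2 of the 3 factors with a difference, and the median was -0.05.

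Markers of other cell types and organs also differed between the arrays, and their part in the enzyme signals was not tested. Among 10 islet genes, 6 had a difference, all 6 positive, with a median of 1.28, and their summed level was 5.77 on the Control array and 11.3 on the other. Gcg, which encodes glucagon in islets and glucagon-like peptides in gut endocrine cells, had a difference of 2.89 and Chga, a marker of endocrine cells of both organs, 2.63. Pdx1 had a bound of 1.58, Ins2 0.98, Sst 0.68 and Mafa 0.20, and Nkx6-1 was well above background on the Control array alone. Ins1, Ppy and Iapp, which encode hormones of the islet, were not well above background on either array. With the spike-in controls set equal, 3 islet genes were higher and 4 lower.

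The gut lining makes digestive enzymes of its own, which sit on the brush border. Of 12 such genes, both arrays detected 11, and all 11 were higher on the array labelled RFF4, with a median of 1.54, a range of 0.11 for Dpp4 to 1.69 for the meprin gene Mep1b, 0 of them more than 4-fold, and summed levels of 30.0 and 82.2. Tmprss15, which encodes enteropeptidase, was not well above background on either array. All 12 markers of enterocytes and epithelium were higher, with a median of 1.55, a range of 0.31 for Cdh1 to 1.89 for Apoa1 and summed levels of 143 and 402. Of 15 genes of Paneth and goblet cells, 12 had a probe and all 12 were higher, with a median of 1.85, 3 of them more than 4-fold (Mmp7 at 2.33, Ang4 at 2.07 and Spink4 just past the threshold) and summed levels of 210 and 726. Paneth and goblet genes were all higher with the spike-in controls set equal as well, whereas 4 of 11 brush border genes and 3 of 12 epithelial genes were then lower. The count of Paneth and goblet genes more than 4-fold higher was 1 with scaling to the median. It was 0 with the spike-in controls set equal and 0 with normexp.

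Organs next to the pancreas were examined with shorter lists. Among 10 stomach genes, 4 had a difference, with a median of 2.70 and summed levels of 1.66 and 10.5. These were Tff1 at 3.09, Gkn2 at 2.88, Tff2 at 2.52 and Gkn3 at 0.77. The genes of the chief and parietal cells, Pgc, Cblif, Atp4a and Atp4b, and the pit cell gene Gkn1 were not well above background on either array, and Muc5ac was on the Control array alone. Among 8 liver genes, 3 had a difference, Amy1 at 3.38, Ttr at 1.92 and Apoa2 at 0.37, and the summed levels were 3.88 and 5.92. Amy1 was the only one past 4-fold, and as a close copy of the pancreatic amylases its signal cannot be told apart from theirs here. Alb, Fgb, Ahsg and Apoh were not well above background on either array, and Cyp2e1 was on the Control array alone. Under the spike-in scaling, 3 of 5 stomach genes were higher, with a median of 1.41, and 2 of 4 liver genes, with a median of 0.04, and 0 stomach genes were more than 4-fold higher.

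Other immune cells make proteases as well, and their genes were compared too. Of 10 mast cell genes, 9 had a probe and 8 a difference, 6 positive and 2 negative, with a median of 1.98 and summed levels of 12.7 and 16.5. The chymase genes Mcpt2, Mcpt1 and Mcpt4 were higher by 2.65, 2.43 and 2.28 and the carboxypeptidase gene Cpa3 by 2.09, while Kit was at -1.46 and Hdc at -0.41. All 12 macrophage and dendritic cell genes with a difference were positive, with a median of 1.90, 6 more than 4-fold and summed levels of 24.9 and 75.4. The highest were Cx3cr1 at 3.57, the major histocompatibility complex genes Cd74 at 3.37 and H2-Aa at 2.95, C1qc at a bound of 2.50, Lyz2 at 2.42 and C1qa at a bound of 2.24. Fcgr1 was well above background on the Control array alone, at 15.8 against 10.3, and Itgam was at 0.92 at its brightest probe and at -0.39 at another. Of 7 reported genes of B and plasma cells, 5 had a difference, with a median of 1.68 and summed levels of 26.5 and 59.1, from -0.26 for Cd79b to 2.15 for Mzb1, and Cd79a and Pax5 were not well above background on either array. Under the spike-in scaling, 9 of 13 macrophage and dendritic cell genes, 5 of 8 mast cell genes and 3 of 5 B and plasma cell genes were higher. Of the macrophage and dendritic cell genes, 2 were then more than 4-fold higher, and 2 were so with normexp.

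The T cell genes were examined as markers of the sorted cells. Both arrays detected all 12 that had a probe, with summed levels of 2242 and 2997 and a median difference of 0.32. They ranged from -0.46 for Ptprc to 2.22 for Cd2. The sign of this small median turned under quantile normalization, to -0.23, under cyclic loess, to -0.04, and under the spike-in scaling, to -0.79. Of the genes that the sort should remove, Cd8b1 was well above background on the Control array alone, with a bound of -0.72 or lower. Cd4 gave 1620 on the Control array and 791 on the other, well above background on both. Its difference was 0.13, a sign that turned with scaling to the median, under normexp, under the spike-in scaling and with the mean of its probes. In RNA pools of this kind, more cells of a type and more RNA per cell cannot be told apart.

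**Figure D3:**
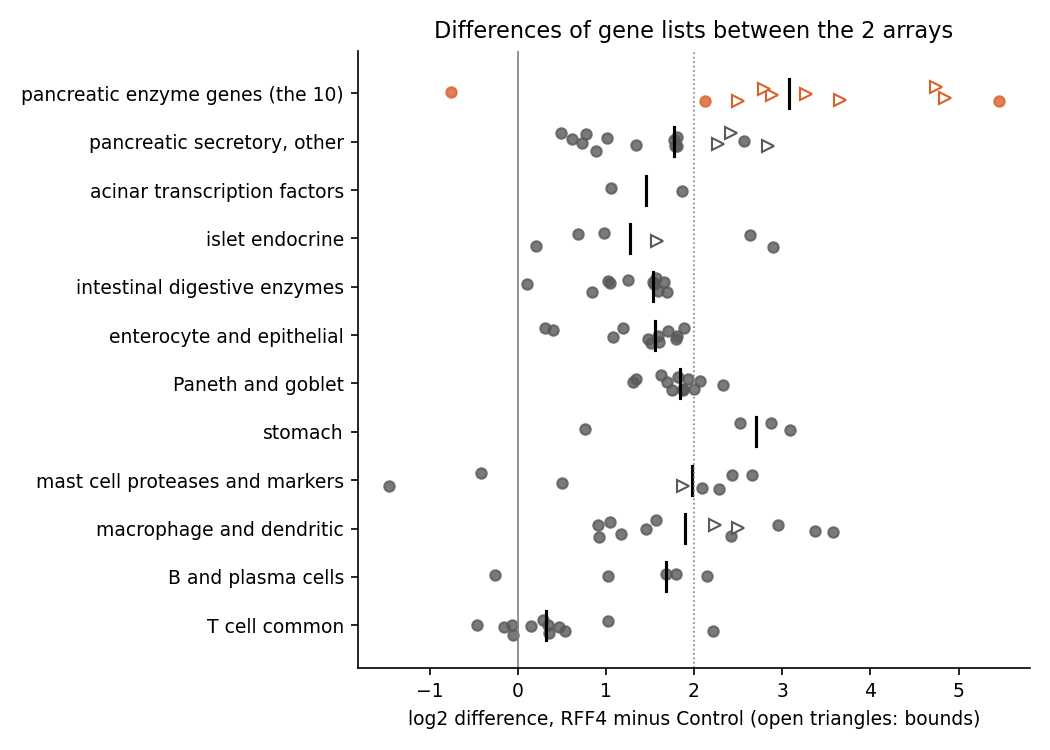
Log2 difference, array labelled RFF4 minus Control array, for each gene with a difference in the 10 enzyme genes and 11 other lists. Circles were well above background on both arrays, open triangles are bounds, black bars are medians, and the dotted line marks 4-fold; the 10 enzyme genes have a median of 3.08 and the T cell genes one of 0.32.

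By distance to the median pair of signals of the 10 enzyme genes (-6.48 on the Control array and -1.45 on the other, in log2 units relative to the 75th percentiles), the 5 genes most alike outside the pancreatic lists were Wnt8b at 0.40, Nexmif at 0.53, C6 at 0.65, Ubd at 0.70 and Tac4 at 0.96. All 5 were well above background on the array labelled RFF4 alone. This likeness rests on 2 arrays and most of it on being near background on 1 of them.

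The size of the enzyme differences depended on the processing, and their direction did not. Over the main and 9 other ways of processing, Amy2a5 ranged from 3.80 to 5.55, Try4 from 2.48 to 6.27, Cpb1 from 1.93 to 5.66, Ctrb1 from 1.02 to 2.18 and Cela1 from -1.86 to -0.76. The upper ends for Try4 and Cpb1 are plain ratios against Control signals that were not well above background, and are not measured differences. With normexp background correction, which adds an offset to every signal, 3 of the 10 genes were more than 4-fold higher, Amy2a5, Try4 and Try5. Under the spike-in scaling, the count was 5, those 3 together with Cpa1 and Cpb1.

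**Figure D4:**
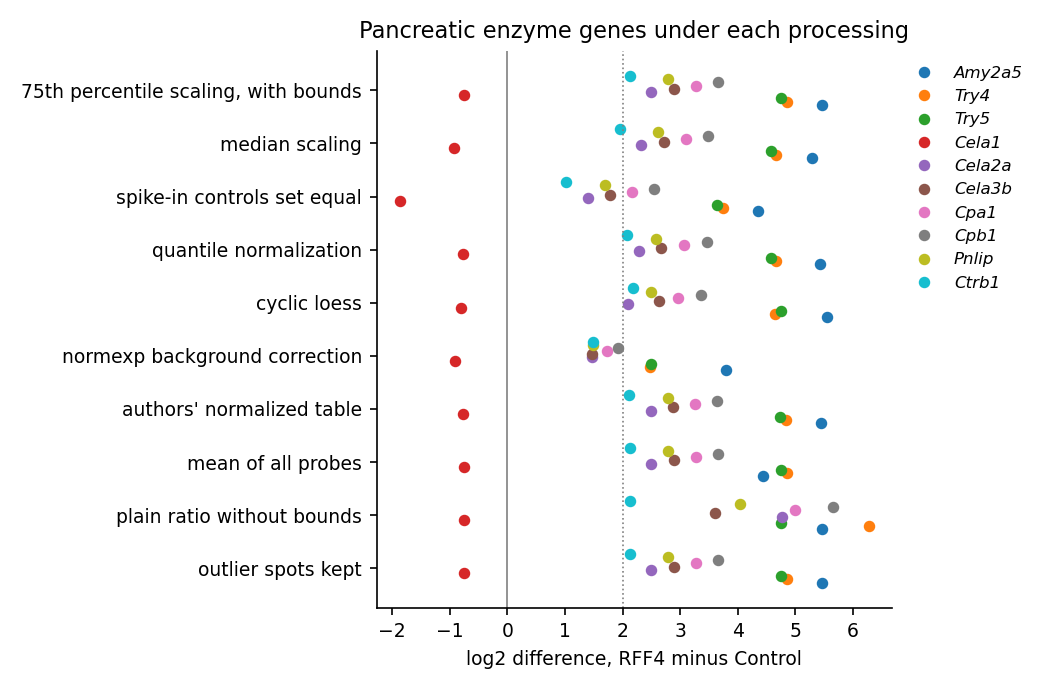
Log2 difference, array labelled RFF4 minus Control array, of each of the 10 enzyme genes under the main processing (top row) and 9 alternatives, 1 color per gene, with bounds plotted at their value. The dotted line marks 4-fold; Cela1 lies left of 0 in every row and the other 9 genes lie right of it, nearest to 0 with the spike-in controls set equal or with normexp.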

How the data were processed

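TCRαβ+CD8αα+ IEL RNA was labelled with Cy3 and hybridized to 1 array per genotype (SurePrint G3 Mouse GE 8x60K). The deposited spot intensity came, per the file headers, from Agilent Feature Extraction 10.7.1.1, which subtracts background and does not normalize between arrays. The authors also deposited a table of log2 values centered per probe (GeneSpring, settings not given in the sources used here). Its difference between the arrays exceeded that of the unscaled scanner values by a median of 1.16 in log2 units over probes, and 0 of its columns were unmapped.

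From the scanner intensities, control and outlier spots were left out, log2 was taken, each array's 75th percentile was subtracted and the spots of a probe were averaged. A probe took the software's background call that 50% or more of its spots had. RefSeq accessions were matched to gene symbols of GRCm38.p6 (27509 of 55679 probes were matched). The other probes were given no symbol and were left out of all gene counts. Named genes, and the probes counted for a gene, thus cover matched probes only. The brightest probe stood for a gene. No coordinate of the array, which was designed on another build, was used.

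Having 1 array for each genotype limits the precision, and no test was run. The enzyme genes and the marker lists were chosen with earlier results of these data known. All 10 enzyme genes were named with every probe, then pancreatic, acinar factor and islet genes well above background on at least 1 array, and in the other lists genes past 4-fold or at the extremes. Some others are named because they define a cell type or are absent. The results of some listed genes are not reported here, and the counts, medians and ranges of those lists leave them out. The 9 alternatives were scaling to the median, 8 spike-in controls set equal, quantile normalization, cyclic loess, normexp with an offset of 50 on median spot signals, the table normalized by the authors, averaging every probe of a gene, plain ratios without bounds, and outlier spots kept. The calculations used Python 3.11.15 (numpy 2.4.6, pandas 2.3.3, matplotlib 3.10.9) and R 4.3.3 (limma 3.58.1), and the steps were tested on simulated data.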

Additional observations from a re-analysis of the deposited data

How the results depend on the processing

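No paired analysis was possible because each genotype has 1 array, and leaving out an array leaves nothing to compare. The count of 7 enzyme genes well above background on the array labelled RFF4 alone was 7 under all 9 alternatives, since the software's calls were kept. The count of 9 genes more than 4-fold higher was 8 or 9 except with the spike-in controls set equal, where it was 5, and with normexp, where it was 3. Over all genes, the same settings left 29 and 62 genes more than 4-fold higher in place of 250, and the median over all genes was -1.09 with the spike-in controls and -0.18 with scaling to the median. The median difference of 3.08 over the 10 enzyme genes was 2.90 with scaling to the median, 1.97 with the spike-in controls, 2.87 with quantile normalization, 2.80 with cyclic loess, 1.60 with normexp and 4.76 as a plain ratio. It moved with scaling to the median and with the spike-in controls because each of these shifts all genes by the same amount, -1.11 for the spike-in controls. As a plain ratio it moved because the bounds are taken away. For the other settings, normexp among them, the cause was not tested. Of 99 differences and medians recomputed for the enzyme genes, 56 moved by more than the SD of 0.13 between repeated dim spots, and 0 changed direction. Signals near background limit the 7 bounds.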
